A study of Mus musculus with 9 samples.

Results

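The probes described here are those of a mouse expression array whose target is given by a chromosome coordinate in place of a gene accession. Members were the non-control probes with a coordinate on an autosome that stood well above background, by the scanner software's own flag, on at least 2 of the 9 arrays. They numbered 4962, out of 15565 autosomal coordinate probes and 55537 non-control probes in all. Such probes are designed against long intergenic noncoding RNAs. Whether the ranges lie between genes was not analysed here, so the members are called coordinate probes.

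Long intergenic noncoding RNAs are transcripts that arise outside protein-coding genes and are not translated into long proteins. Many are transcribed by RNA polymerase II, spliced and polyadenylated like messenger RNAs, at lower levels and in fewer cell types. Some, such as Xist and Malat1, act as RNA on chromatin or in nuclear bodies, while for most no function is known. Thymocytes pass from a CD4+CD8+ double-positive (DP) stage, at which the T cell receptor alpha chain is rearranged, to CD4 or CD8 single-positive (SP) cells, a step with large changes in transcription. Brd1 is a bromodomain protein and a subunit of histone acetyltransferase complexes.

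All cells were thymocytes of C57BL/6 mice sorted by CD4, CD8 and TCRβ. Each group was 1 one-colour array, so 9 arrays stood for 9 groups. Control mice carried Brd1+/+ and the Tie2-Cre transgene, and conditional knockout (CKO) mice carried Brd1flox/flox and Tie2-Cre, so Cre was present in every group. Tie2-Cre is active in endothelial cells and in blood cells that descend from them, so deletion was not limited to T cells. Arrays of DP, CD4SP and CD8SP cells existed for control and CKO mice of 8 weeks. A further CKO array, also of 8 weeks, held TCRβ-negative CD4SP cells and had no control counterpart. CD8SP cells of both genotypes also came from 14-week-old mice with OT-l (usually written OT-I), a transgenic T cell receptor that directs cells to the CD8 lineage. Nothing in the labels says how many mice stood behind an array, so the p-values below measure the spread between these arrays across populations.

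The 75th percentile of signal, to which each array was scaled, lay between 87.44 and 140.4 intensity units, and 39 to 45.9% of all probes were well above background. The Brd1 probe had levels of -0.79, -1.09, -1.37 and -1.34 in the DP, CD4SP, CD8SP and OT-I controls and of -0.33, -0.98, -0.73 and -0.73 in the matching CKO arrays. It was not lower in the CKO array of any pair, and whether its target is among the exons flanked by loxP is not given in the sources used here, so it checks neither label. Cd4, Cd8a, Cd8b1 and Cd3e were well above background on all 9 arrays. Cd4 was between 6.19 and 6.54 in DP and CD4SP arrays and between 3.14 and 3.50 in CD8SP arrays. Cd8a was between 4.57 and 5.44 in DP and CD8SP arrays and between -2.11 and -0.32 in CD4SP arrays. CD8SP CKO and both OT-I arrays were on slide 2 and the rest on slide 1, so in the CD8SP pair genotype and slide cannot be told apart.

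Of the 15565 autosomal coordinate probes, 9609 were not well above background on any array and 994 on only 1. The members thus made up 31.9% of the class, against 60.1% of the probes with an NM (messenger RNA) accession and 42.9% of those with an NR (noncoding RNA) accession that passed the same rule. A total of 2637 members, or 53.1%, were well above background on all 9 arrays, against 78.4% of the NM probes. At the edge of the rule, the 420 members well above background on exactly 2 arrays had a median level of -3.63, and the 994 probes with 1 such array had -4.16. Here and below a level is the log2 signal minus the array's 75th percentile. Mean levels of the members had quartiles of -2.81, -1.69 and -0.10 with a highest value of 11.04, and the median of the NM probes was 0.95. A mean level above 5 was reached by 127 members (2.56%) and by 1697 of the 15851 tested NM probes.

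The number of members well above background differed more between arrays than that of the NM probes did. It was 4563 in DP control, 4134 in DP CKO, 3495 in CD4SP control, 4528 in CD4SP CKO, 3168 in CD8SP control, 3624 in CD8SP CKO, 3450 in OT-I control, 3625 in OT-I CKO and 4337 in TCRβ-negative cells. These counts run from 63.8% to 92% of the members, while the NM probes ran from 87.4% to 93.8%. The members were also dimmer, with a median mean level of -1.69 against 0.95. Neither these shares nor those of the combinations below thus compare the classes at equal signal. DP and TCRβ-negative arrays were high and CD8SP arrays low, with the CD4SP arrays far apart. The 75th percentiles were 90.77 in CD8SP control and 87.44 in CD4SP control, against 127.6 in DP control, 140.4 in CD4SP CKO and 139.7 in TCRβ-negative cells. They did not follow the counts array by array, with 118.2 in CD8SP CKO and 115.4 in DP CKO. Their part in the counts was not tested. A set of 111 members (2.24%) was well above background on DP control and CD4SP CKO only, a combination of arrays that neither population nor genotype defines, against 0.309% of the NM probes. A further 54 members (1.09%, against 0.448% of the NM probes) were well above background on the DP arrays of both genotypes and the TCRβ-negative array only, and 20 (0.403%, against 0.246%) on both CD4SP arrays only. On both CD8SP arrays only there were 2 members (0.0403%, against 0.259%), and on the 6 TCRβ-bearing SP arrays only also 2 (0.0403%, against 0.271%).

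The 15565 probes tile 4430 ranges of mouse genome build mm9, from 62 to 7128487 bases long with a median of 10745 bases. Names end in F or R, read here as the 2 strands because that is the usual meaning of the letters, which the files do not spell out. Members were split evenly, with 2404 F, 2552 R and 6 without a letter. Among 3247 ranges with at least 3 probes, 345 had every probe as a member, 1661 had some and 1241 had none. Of 1042 ranges tiled under both letters, 471 had members under both, 426 under only 1 and 145 under neither. Joining overlapping ranges of 1 letter (ranges over 1 Mb were kept apart) gave 3227 loci, 1972 of them with a member and 652 with at least 3. Every autosome contributed members, with a share that ran from 25.4% of the probes on chromosome 10 to 40.6% on chromosome 5.

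Probes of the same range had like differences. For the difference between genotypes, the SD among members of 1 range had a median of 0.21 over 1237 ranges, while the SD over all members was 0.53. For CD4SP minus DP the values were 0.26 and 0.78, and for CD8SP minus DP 0.32 and 0.85. Probes of 1 named gene were closer still, with medians of 0.11, 0.16 and 0.18. In 471 ranges with members under both letters, the medians of the F and R members differed by a median of 0.28 between genotypes and of 0.32 for CD4SP minus DP. Probes of 1 range share their target and are no replicates of a condition.

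Differences were fitted with limma (lmFit and eBayes, Benjamini-Hochberg adjustment over all 26622 probes well above background on at least 2 arrays), with a term for each population and 1 for genotype. A probe is called at an adjusted p below 0.05. With 3 residual degrees of freedom, the same fit recovered 0% of simulated genotype differences of 1 on the log2 scale, 32% of those of 2 and 78% of those of 3, so most differences of 4-fold or less would not be called.

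Coordinate probes differed less between populations than NM probes of equal signal. Probes were set into 10 bins cut at the members' deciles of mean level, and the NM values were averaged over the bins. For CD4SP minus DP the interquartile range of the members was 0.65 against 0.99, and 13.5% of the members differed by more than 2-fold against 25.3%. For CD8SP minus DP the values were 0.85 against 1.12, and 20% against 26.8%. For CKO minus control they were 0.57 against 0.68, and 6.55% against 11.7%. In all 3 comparisons the members' interquartile range was the smaller in 10 of 10 bins, although at the printed precision both were 0.76 in the ninth bin of CD8SP minus DP. From the dimmest to the brightest bin the ranges for CD4SP minus DP went from 1.24 to 0.42 in members and from 1.85 to 0.68 in NM probes. For CD8SP minus DP they went from 1.33 to 0.52 and from 2.26 to 0.73, and for genotype from 0.83 to 0.34 and from 1.07 to 0.44.

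The ratio of the 2 interquartile ranges was 0.66 for CD4SP minus DP, 0.76 for CD8SP minus DP and 0.84 for genotype. Taken in single arrays, it was below 1 for CD4SP minus DP in control arrays (0.86) and in CKO arrays (0.80), and for CD8SP minus DP in control arrays (0.94) and in CKO arrays (0.78). For genotype it was not below 1 in every pair. The members' range was 0.80 against 0.87 in the DP pair and 0.98 against 1.29 in the OT-I pair, but 0.99 against 0.94 in the CD4SP pair and 1.16 against 1.14 in the CD8SP pair. The 379 tested NR probes, at equal signal, had ranges of 0.85 for CD4SP minus DP, 0.91 for CD8SP minus DP and 0.60 for genotype. The members' range was the smaller in 8, 7 and 6 of the 10 bins respectively.

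In CD4SP minus DP, 37 members were called higher (1.95% of all tested probes were) and 27 lower (0.883%). These are 0.746% and 0.544% of the members, below the share over all probes in both directions. Of the 37 and 27, 22 and 10 were well above background on all 9 arrays, so the remainder include members that entered through the arrays where they were bright. In CD8SP minus DP, 29 members were called higher (1.98% of all tested probes) and 41 lower (0.913%), which is 0.584% and 0.826% of the members. Both comparisons use the same DP arrays. Without the CD8SP pair the count for CD4SP minus DP was 13, and without the OT-I pair it was 121. For CD8SP minus DP the count was 34 without the CD4SP pair, and with slide as a block it was 0.

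Loci whose members were at their highest in DP cells formed the first pattern. All loci below were chosen for description after their values had been seen, and their values are given without a test of the locus. The F locus at chr1:139713316-139913366 had 17 members of 22 probes, 11 of them well above background on all arrays. Their median levels were 3.63 and 1.62 in the DP pair (control, then CKO), 2.54 in TCRβ-negative cells, -0.61 and 0.51 in CD4SP control and CKO, -1.67 and -0.64 in CD8SP control and CKO, and -0.32 and -0.25 in the OT-I pair. The 3 DP and TCRβ-negative arrays lay above all 6 TCRβ-bearing SP arrays. All 17 members were lower in CD8SP than in DP cells, by a log2 difference of -1.22 to -4.20, and 3 were called. Among them, A_30_P01022216 (chr1:139795171-139796306) read 4.00 in DP control and 2.66 in DP CKO against -0.16 and 0.01 in CD8SP control and CKO, a difference of -3.41 (SE 0.50, limma adjusted p = 0.0308). For CD4SP minus DP the locus median was -2.67, but no member was called, with a smallest limma adjusted p of 0.0628. The genotype difference had opposite signs in DP (-2.11) and CD4SP cells (1.32). The 8 R members over the same stretch had medians of -1.87 for CD4SP minus DP and -2.16 for CD8SP minus DP.

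The R locus at chr13:28477490-28985604, the one with the most members, had 23 of 34 probes. Their median level was 0.77 and -0.39 in DP control and CKO, -0.15 in TCRβ-negative cells, -1.59 and -0.54 in CD4SP, -2.51 and -2.42 in CD8SP and -1.61 and -2.20 in OT-I CD8SP cells. All 23 were well above background on both DP arrays, against 11 on CD8SP control. The CD8SP minus DP difference had a median of -2.62, 22 of the 23 were below 0 and 10 were called. The smallest limma adjusted p was 0.0184, for A_30_P01017692, which was not well above background on either CD8SP array. For CD4SP minus DP the median was -1.39 and 2 were called. Those 2, A_30_P01017880 and A_30_P01028181, were called in both comparisons. They and A_30_P01027049, called for CD8SP minus DP, are members only through the DP and TCRβ-negative arrays. Their calls are thus not independent of how members were chosen. Over all tested probes the median was 0.00 for CD8SP minus DP and -0.01 for CD4SP minus DP.

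At chr5:149751979-149827389 on R, the median of 10 members was high in DP and TCRβ-negative cells and lowest in CD4SP cells. The median level was 1.26 and 1.34 in DP control and CKO, 1.08 in TCRβ-negative cells, -0.32 and -0.99 in CD8SP control and CKO, -0.89 and -1.82 in the OT-I pair, and -3.17 and -2.15 in CD4SP control and CKO. CD4SP minus DP was called for 6 of the 10, and 8 were lower in CD4SP than in CD8SP cells. A_30_P01018012, well above background on 3 arrays, did not follow, with -2.74 and -2.24 in DP control and CKO and -2.12 and -3.19 in CD4SP control and CKO. The member A_30_P01019709 (chr5:149765314-149771786) read 1.26 and 1.34 in DP control and CKO and was not well above background on either CD4SP array, so that DP was at least 31.9-fold higher than CD4SP (limma adjusted p = 0.0289). Such a bound sets the mean of the bright group against a value for each dim array. That value is the larger of the probe's own reading and the lowest signal still well above background on the array. A reading can lie above that lowest signal without the flag, so it is no sharp detection limit. The 5 F members over the same stretch had a median difference of 0.04.

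Smaller loci had a like order of populations. The 3 members within the 438 bases of chr9:32416123-32416560 on R had medians of 1.14 and 0.48 in DP control and CKO and 0.41 in TCRβ-negative cells, against -2.50 and -2.52 in CD4SP, -0.38 and -3.53 in CD8SP and -1.28 and -3.80 in OT-I CD8SP control and CKO, and none was called. At chr2:128137419-128141735 on R, A_30_P01023701 was well above background on the 2 DP arrays (-1.71 and -1.31) and the TCRβ-negative array (-1.61) only. DP was at least 6.08-fold higher than CD4SP (limma adjusted p = 0.0204) and at least 5.09-fold higher than CD8SP cells (limma adjusted p = 0.0201). It is a member only through the arrays on which it is high, so these p-values are not independent of how members were chosen. The DP-stage markers Rag1, Rag2, Ptcra and Arpp21 had summed levels of 8.32 and 8.33 in DP control and CKO and 8.33 in TCRβ-negative cells, 1.77 and 3.27 in CD4SP, 5.46 and 4.30 in CD8SP, and 4.01 and -0.02 in OT-I CD8SP cells. All 4 were well above background on every array except Rag2 in OT-I CKO. The part of DP-stage cells left in an SP gate in these values was not tested, and in sorted bulk samples fewer cells of a type and less RNA per cell cannot be told apart.

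A second pattern was low signal in CD4SP cells with high signal in CD8SP controls. The F locus at chr10:83181374-83249918 had 9 members with median levels of 0.77 and 0.57 in DP control and CKO, -1.14 and -1.63 in CD4SP, 2.65 and 0.95 in CD8SP, 3.29 and -0.73 in OT-I CD8SP and 1.41 in TCRβ-negative cells. CD8SP control and OT-I control were the highest arrays, and OT-I CKO was among the 3 lowest. CD8SP minus CD4SP had a median of 3.70 and 8 of 9 members were past 2-fold, but none was called, with a smallest limma adjusted p of 0.28. The remaining member, A_30_P01026434, lay between 0.23 and 0.59 on every array. At chr9:14460976-14488051 on F, 7 members had median levels of 4.96 and 5.01 in CD8SP and OT-I control, 4.19 and 4.11 in the DP pair, 4.43 in TCRβ-negative cells, 3.37 in CD8SP CKO, 1.82 and 2.07 in the CD4SP pair and 1.68 in OT-I CKO. CD8SP and OT-I control were again the highest arrays. CD8SP minus CD4SP was past 2-fold in 5 of the 7 and 0.16 at the lowest. Proliferation markers, all 8 well above background on all arrays, had a like order. Their summed levels were 8.62 and 8.85 in CD8SP and OT-I control, 8.52 in TCRβ-negative cells and 8.07 and 7.80 in the DP pair. They were 7.29 in CD8SP CKO, 5.21 and 5.40 in the CD4SP pair and 5.28 in OT-I CKO. The chromosome 10 locus differed from this order, with CD8SP CKO above both DP arrays. The part of proliferation in the signal of these loci was not tested.

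In the opposite direction, several loci were higher in SP cells than in DP cells. At chr1:175705225-175717250 on R all 5 members were well above background on all arrays and all 5 were called in both SP comparisons. Median levels were -0.12 in DP control, 1.30 in DP CKO, 1.27 in TCRβ-negative cells, 2.22 and 3.30 in CD4SP control and CKO, 1.83 and 3.42 in CD8SP control and CKO, and 1.08 and 2.58 in the OT-I pair. Within each genotype every TCRβ-bearing SP array lay above the DP array. The differences ran from 2.17 to 2.26 for CD4SP minus DP, with limma adjusted p from 0.0244 to 0.0316, and from 2.03 to 2.22 for CD8SP minus DP, with limma adjusted p from 0.0232 to 0.033. The neighbouring R locus at chr1:175653557-175672031 had 8 members whose median on each TCRβ-bearing SP array also lay above that of the DP array of its genotype, with 5 called for CD4SP minus DP and 7 for CD8SP minus DP. In the 4 of them well above background on all arrays the CD8SP minus DP difference ran from 1.85 to 2.63. A_30_P01019537 was not well above background on either DP array, and CD8SP was at least 11.7-fold higher (limma adjusted p = 0.0297). It is a member only through both CD8SP arrays and OT-I control, so this p is not independent of how members were chosen.

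The F locus at chr15:77164450-77201325 had 5 members with median levels of 1.03 and 1.18 in DP control and CKO, 0.09 in TCRβ-negative cells, 3.50 and 3.00 in CD4SP, 2.81 and 3.30 in CD8SP and 3.16 and 3.46 in OT-I CD8SP cells. The 6 TCRβ-bearing SP arrays were all above the 3 others. A_30_P01019660 rose by 2.92 (SE 0.32, limma adjusted p = 0.0189) in CD4SP and by 2.39 (adjusted p = 0.025) in CD8SP against DP cells. In TCRβ-negative against CD4SP cells it fell by 4.21 (SE 0.41, limma adjusted p = 0.0289). One of the 5, A_30_P01032050, did not follow, with levels from -1.63 to -0.54 on all arrays.

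Single probes also stood apart within a locus. A_30_P01027321 at chr13:94190118-94190496 read -0.60 and -0.31 in DP control and CKO and -0.91 in TCRβ-negative cells, against 3.13 and 3.49 in CD4SP, 2.61 and 4.00 in CD8SP and 2.55 and 3.86 in OT-I CD8SP cells. It was called higher in CD4SP (3.76, SE 0.39, limma adjusted p = 0.0166) and in CD8SP cells (3.76, limma adjusted p = 0.0138), while the 12 members of the joined R locus that includes it had medians of -0.20 and -0.85. A_30_P01017900 at chr4:129488462-129516410 on F was higher by 4.32 in CD8SP than in DP cells (SE 0.38, limma adjusted p = 0.0106), with -3.71 (not well above background) and -2.60 in DP control and CKO and 1.06 and 1.27 in CD8SP arrays. The 10 members of the range chr4:129497990-129515290 that lies inside its own had a median of -0.74 in that comparison.

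The R locus at chr12:33604247-33638654 was at its highest on the CD4SP arrays. Its 5 members had medians of -1.30 and -1.71 in CD4SP control and CKO and between -5.46 and -4.50 on the other 7 arrays. On each of those 7 arrays 1 or 2 members were well above background, and 1 member was on all 9 arrays. A_30_P01030395 and A_30_P01027995 were the only members called between CD8SP and CD4SP cells, both lower (0.101% of all tested probes were called lower and 0.21% higher). They are named because the count is small. CD4SP was at least 4.83-fold higher for A_30_P01030395 (limma adjusted p = 0.0329) and at least 6.11-fold higher for A_30_P01027995 (limma adjusted p = 0.0412). Both are members only through the CD4SP arrays on which they are high, so these p-values are not independent of how members were chosen. Both calls are absent without the DP pair or with slide as a block. Without the OT-I pair 7 members were called, and with all arrays 450 (9.07%) had an unadjusted p below 0.05, against 12.8% of all tested probes. In TCRβ-negative cells the locus median was -5.46, and both members were called lower than in CD4SP cells.

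Against CD4SP cells, the TCRβ-negative CD4SP array had 17 members called lower (0.909% of all tested probes) and 3 higher (0.169%). The fitted difference takes off the genotype effect of the 4 pairs, since the only TCRβ-negative array came from CKO mice. At chr8:96983590-96994419 on F, A_30_P01028457 read 0.02 and -0.25 in CD4SP control and CKO and was not well above background in TCRβ-negative cells, which puts CD4SP at least 14.9-fold higher (limma adjusted p = 0.0362). None of the 3 members of this range was well above background in TCRβ-negative cells, against 2 on each DP array and 3 on each CD4SP array. The 3 called higher, which are named because they are few, were A_30_P01023701 of the chromosome 2 range above, A_30_P01027220 at chr3:26975323-26978719 on R and A_30_P01031515 at chr12:70602812-70603402 on F. None of them was well above background on a CD4SP array. All 3 are members only through DP and TCRβ-negative arrays, on which they are high. Their calls are thus not independent of how members were chosen. Against DP cells no member was called in either direction by limma (0% of all tested probes), while 81 members (1.63%) had an unadjusted p below 0.05, against 1.69% of all tested probes. Calls against CD4SP fell to 0 without the DP pair and without the CD8SP pair, and rose to 45 without the OT-I pair.

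OT-I CD8SP against CD8SP cells gave 1 member called higher (0.0413% of all tested probes) and 0 lower (0.154%). It was A_30_P01029975 at chr8:41730287-41746862 on R, named because it was the only one. It read -1.53 and -1.37 in OT-I control and CKO and was not well above background on the other 7 arrays, so OT-I was at least 5.31-fold higher (limma adjusted p = 0.0473). It too is a member only through the arrays on which it is high, so this p is not independent of how members were chosen. Without the DP pair and without the CD4SP pair no member was called, and with all arrays 236 (4.76%) had an unadjusted p below 0.05, against 6.74% of all tested probes. The OT-I mice were also older, at 14 against 8 weeks. Gamma delta T cell markers, of which 2 of 3 had a probe, had medians of 3.39 and 2.01 in OT-I control and CKO. In CD8SP control and CKO the medians were -0.16 and 0.27. Other marker lists also differed. Granulocyte markers had medians of -4.07 and -3.39 in OT-I control and CKO, against -0.06 and 0.02 in CD8SP control and CKO. Of these 5 markers, 1 and 2 were well above background on the OT-I arrays, against 4 on each CD8SP array. DP-stage markers had medians of 1.23 and -2.25 against 3.26 and 1.86. The part of the cells behind these lists in this comparison was not tested. Unlike A_30_P01029975, the F locus at chr15:59966962-59972812 had all 5 members well above background in CD8SP control and none in CD8SP CKO or on either OT-I array. A difference there rests on 1 array, and none was called.

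Between genotypes 1 member was called higher in CKO (0.0188% of all tested probes) and 1 lower (0.158%), while 404 members (8.14%) had an unadjusted p below 0.05, against 2836 of all 26622 tested probes, a larger share. The member called lower was A_30_P01027245 at chr6:121035524-121061074 on R. It read 1.64, 1.57, 0.48 and 0.22 in the DP, CD4SP, CD8SP and OT-I controls and -4.03, -5.76, -4.59 and -5.17 in the matching CKO arrays, with -4.20 in TCRβ-negative cells. All 4 controls were well above background and none of the 5 CKO arrays was. Control was at least 27.8-fold higher (limma adjusted p = 0.0234). The probe is a member only through the control arrays, so this p is not independent of how members were chosen. A_30_P01025780 of the same range read 1.65, 1.57, 0.44 and 0.17 in the controls and between -5.18 and -2.83 on the 5 CKO arrays. None of those 5 was well above background. Control was at least 23.1-fold higher, but the limma adjusted p was 0.0801. A_30_P01025780 too is a member only through the control arrays, so its p is not independent of how members were chosen. The third member of the range, A_30_P01030210, differed by -0.68, and the other 6 members of the joined locus by -0.07 to -0.56. Of the 9 members of the joined locus, 9, 9, 8 and 8 were well above background on the DP, CD4SP, CD8SP and OT-I controls. On each matching CKO array 6 were, and in TCRβ-negative cells 7.

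The member called higher was A_30_P01031943 at chr17:22420025-22457650 on R. Its levels were -3.21, -2.98, -3.27 and -2.40 in the DP, CD4SP, CD8SP and OT-I controls, and -1.51, -0.96, -1.04 and -0.49 in the matching CKO arrays, with -1.02 in TCRβ-negative cells. It was not well above background in CD4SP control and CD8SP control. The 5 CKO arrays were all above the 4 controls, by a fitted difference of 1.96 (SE 0.19, limma adjusted p = 0.0427). All 11 members of the joined locus at chr17:22332475-22466521 were higher in CKO, from 0.89 to 1.96, and 9 were past 2-fold. By pair, the locus median was 0.97 in DP, 1.94 in CD4SP, 1.81 in CD8SP and 1.70 in OT-I CD8SP cells. All 11 were higher in 3 of the 4 pairs and 10 in the DP pair. On the DP, CD4SP, CD8SP and OT-I controls 10, 5, 6 and 7 of the 11 were well above background, and 4 were on all 9 arrays. These medians therefore include differences against background. A_30_P01020914 (1.66, adjusted p = 0.0563) and A_30_P01030657 (1.82, adjusted p = 0.0631) were the next by p and did not pass. The 2 F members over this stretch had a median of -0.09.

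Both genotype calls were lost without the DP pair, without the CD4SP pair and without the CD8SP pair, where no member was called, and the last equals the fit with slide as a block. Their limma adjusted p ran from 0.00175 to 0.138 for A_30_P01027245 and from 0.02 to 0.231 for A_30_P01031943 over the alternatives. For A_30_P01031943 the limma adjusted p was also above the threshold, at 0.0925, without the OT-I pair. It was 0.108 with normexp, 0.053 with quantile normalization and 0.17 on slide 1 alone. With arrays scaled on probes well above background throughout, it was 0.073 for A_30_P01031943 and 0.0578 for A_30_P01027245. The sign was unchanged in each alternative, but the size was not. With normexp the difference of A_30_P01031943 shrank from 1.96 to 0.60. That of A_30_P01027245, whose CKO readings were not well above background, shrank from -5.87 to -2.35.

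The other members with the smallest p toward lower levels did not pass. They were A_30_P01018981 at chr7:13533925-13544525 on F (-3.40, SE 0.44, limma adjusted p = 0.0791, well above background on the 4 controls and CD4SP CKO only) and A_30_P01031403 at chr5:31856417-31916317 on R (-1.22, SE 0.19, limma adjusted p = 0.13).

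Further loci differed between genotypes without a call, and are given as values. At the 5-member locus of chromosome 1 described above, every member was higher in CKO in all 4 pairs, with medians of 1.54 in DP, 1.03 in CD4SP, 1.67 in CD8SP and 1.45 in OT-I CD8SP cells, and the smallest adjusted p was 0.0963. The 5 members at chr6:31017987-31174287 on R had median differences of 0.20 in DP, 1.98 in CD4SP, 3.25 in CD8SP and 2.36 in OT-I CD8SP cells, and 4 of the 5 were higher in the DP pair and 5 in the others. Only 2 to 3 of the 5 were well above background on a control array, so these medians include differences against background. The 2 members well above background on all arrays, A_30_P01019423 and A_30_P01029853, were higher by 0.82 and 2.59 in the CD8SP pair. Another of the 5, A_30_P01033525, was not well above background on any control array. The 4 paired CKO arrays were at least 5.04-fold higher for it, with a limma adjusted p of 0.0909. It is a member only through those 4 arrays. Neither this p nor the next one given for it is thus independent of how members were chosen. In TCRβ-negative cells, also CKO, A_30_P01033525 was not well above background and was called lower than in CD4SP cells. CD4SP was at least 6.89-fold higher (limma adjusted p = 0.0371), although only the CKO array of the 2 CD4SP arrays was well above background. The 8 members at chr11:112898724-113062945 on R had medians of 0.61, 0.94, 1.06 and 1.47 in the same order of pairs, and 7 of the 8 were higher in each pair. At chr7:111526943-111545093 on R the 3 members had medians of 1.40, 0.32, 1.26 and 1.83, but only A_30_P01024661 was well above background on all arrays.

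Lower in CKO were the 3 members at chr4:88542373-88589148 on R, whose median level was -2.56, -1.74, -2.52 and -2.28 in the DP, CD4SP, CD8SP and OT-I controls. Well above background were 2, 3, 2 and 3 of them on these control arrays and 1, 0, 0 and 1 on the matching CKO arrays, so the size of the difference is not given. The 4 members at chr14:21621875-21638625 on R had a median of -0.67 in the DP pair, in which all 4 were well above background on both arrays. On each CD4SP and CD8SP array only 1 was, and on the OT-I arrays none, so no median is given for those pairs. At chr15:59966962-59972812 on F the median level was 0.06 in CD4SP control and -2.98 in CD4SP CKO, -0.78 in CD8SP control and -3.68 in CD8SP CKO, and between -5.58 and -4.86 on the other 5 arrays. All 5 members were well above background in CD4SP control and CD8SP control, 3 in CD4SP CKO and none on the other 6 arrays. The pair differences are therefore set against background in the CD8SP pair and in part in the CD4SP pair, and cannot be read in the DP and OT-I pairs. At the chromosome 10 locus with the CD4SP minimum the pair medians were -0.19, -0.50, -1.88 and -4.64, and proliferation markers had pair medians of -0.28, 0.10, -1.53 and -3.61. Over all 652 loci with at least 3 members, 4 had every member past 2-fold higher in CKO and 4 every member past 2-fold lower, which is 1.23% of the loci against 1.84% of 488 named genes with at least 3 probes.

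Pair by pair, and with no test since each side is 1 array, 170 of 4739 members were more than 2-fold higher in the DP CKO array (4.85% of all probes were) and 626 lower (8.65%). In the CD4SP pair 602 of 4602 were higher (7.75%) and 201 lower (5.39%). In the CD8SP pair 573 of 3897 were higher (10%) and 421 lower (10%). In the OT-I pair 607 of 3950 were higher (11.3%) and 274 lower (15.2%), a split that became 886 and 194 when arrays were scaled on probes well above background throughout. More of the members past 2-fold were thus lower than higher in the DP pair, and more were higher in the other 3. Among members well above background on both arrays the CD8SP pair had 205 higher and 223 lower, and after normexp background correction the OT-I pair had 83 and 84. In each pair the array with the larger number of members well above background was the one with more members on its higher side, and the part of array brightness in these counts was not tested.

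Pair differences were ranked only among members well above background on both arrays of the pair and of at least the members' median mean level. In the DP pair and among the OT-I decreases several of the largest shared a locus. In the CD4SP and CD8SP pairs each of the largest lay at a different locus. In the DP pair A_30_P01020161 and A_30_P01027378, both at chr13:108653722-108654406 on R, read 1.73 and 1.50 in control and -1.43 and -1.54 in CKO, and in the other 3 pairs they were higher in CKO by 0.49 to 1.66. In the OT-I pair the 3 largest decreases among such members were all at the chromosome 10 locus, led by A_30_P01033328 from 3.20 to -1.63. In the CD8SP pair A_30_P01031172 at chr14:21621875-21638625 on R went from 2.42 to -2.15. In the CD4SP pair A_30_P01029853 at chr6:31078802-31079644 on R went from -0.71 to 1.59. Granulocyte markers had a pair median of -3.40 in the DP pair, with all 5 well above background in control and 4 in CKO (S100a8 was not). NK cell markers had -5.78 in the CD4SP pair, with 3 of 4 well above background in control and none in CKO. Their part in the members' pair differences was not tested.

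The genotype effect in CD8SP and OT-I CD8SP pairs against that in DP and CD4SP pairs was tested as an interaction. No member was called (0% of all tested probes), the smallest limma adjusted p was 0.329, and 549 members (11.1%) had an unadjusted p below 0.05, against 14.5% of all tested probes.

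The brightest members differed little by genotype. The 5 of highest mean level read from 10.56 to 11.49 (A_30_P01026458, chr11:22681800-22707775 on R), 10.12 to 11.21 (A_30_P01030669, chr7:108209996-108216032 on R), 10.11 to 10.69 (A_30_P01020015, chr17:39982023-39983277 on F), 9.75 to 10.60 (A_30_P01020570, chr12:73838608-73862621 on F) and 9.84 to 10.42 (A_30_P01031448, chr14:78924115-78938125 on F) over the 9 arrays. Their genotype differences lay between -0.28 and -0.03, and none was called. Among the 5 ranges with the most members, each with 10 of 10 probes, the 10 members at chr17:26911397-26917047 on F were higher in CD4SP than in DP cells by 0.86 to 1.48. Those at chr5:74487385-74497428 on F had a median of 1.11 for CD8SP minus DP and of -0.78 for genotype, and those at chr12:72103832-72116875 on R had -0.93 for CD8SP minus DP.

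Named long noncoding RNAs gave a comparison set. Of 30 listed, 19 had a probe and 17 were tested, and none was called by limma in any comparison. Malat1, a nuclear RNA of splicing speckles, had a genotype difference of 0.20 and Neat1, the scaffold of paraspeckles, of 0.24. Mir17hg, host of the miR-17 cluster, had -1.25. Mirt1 had -2.03 for CD4SP minus DP and -2.74 for CD8SP minus DP, the latter with an adjusted p of 0.0673. The medians over the 17 were -0.12 for genotype, 0.08 for CD4SP minus DP and -0.12 for CD8SP minus DP, beside -0.03, -0.01 and 0.00 over all tested probes.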

How the data were processed

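RNA of sorted mouse thymocytes was measured on 9 one-colour arrays of 1 Agilent design, 1 array per group. Per the file headers, the deposited intensity values were made with Agilent Feature Extraction 10.7.1.1, which subtracts background and detrends within an array, with probe coordinates on mm9. The labels' protocol names biotinylated cRNA, while the scanner files hold one green channel. A deposited series table, also linear intensity, has r = 1 with the scanner values. Control spots and 144 of 55681 probes with outlier flags were left out, spots of 1 probe were averaged, and log2 intensity minus each array's 75th percentile was taken. No spot was saturated, and the number of arrays limits the precision.

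Differences were fitted in R 4.3.3 with limma 3.58.1 over 26622 probes, with 1 residual spread taken across populations. In simulated data with 200 changed probes, 86% of log2 differences of 4 were called, with 3 false calls. Members and lists were chosen with earlier results of these data known. Rules set which members could be named, and not all that met them are named. The rules took called members (up to 10 by size for genotype, up to 5 of at least median signal per population contrast). They also took those of smallest p toward a direction with fewer than 3 calls and the 3 largest differences per pair and direction. Last came the 5 of highest mean and the 5 ranges with most members. Pair differences were ranked among members well above background on both arrays of the pair and of at least the members' median mean level. Loci and other single probes were chosen after their values were seen. Alternatives were normexp background correction (on the median signal, as the files used here have no mean signal column), other scalings and detection filters, slide as a block, 20 bins and leaving out each pair. Chromosome 18 loci are not named here. One marker of the DP stage is not reported here and was left out of that list's sums. Probe sequences were not analysed here.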

Additional observations from a re-analysis of the deposited data

How the results depend on the processing

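Each group has 1 array and carries no replicate number shared with another, so arrays could not be matched by animal. The genotypes were matched only by population, through the term for each population in the fit. Counts are called members, taken from the 4962 wherever a setting keeps them. For genotype, 2 became 11 with normexp, 0 with the 75th percentile of probes detected throughout, 1 with quantile normalization, 7 with no detection filter and 0 with slide as a block, and 0 to 2 when a pair was left out. For CD4SP minus DP, 64 became 42 with the detected percentile and 13 with the block, and 13 to 121 without a pair. For CD8SP minus DP, 70 became 136 with normexp, 37 with the detected percentile and 0 with the block, and 34 to 95 without a pair. For CD8SP minus CD4SP, 2 became 0 with normexp, 4 with no filter, 0 with detection on at least 5 arrays and 0 with the block, and 0 to 7 without a pair. For OT-I CD8SP minus CD8SP, 1 became 0 with normexp, the detected percentile, detection on 5 arrays and the block, 2 with quantile normalization and 4 with no filter, and 0 to 0 without a pair. For TCRβ-negative CD4SP minus CD4SP, 20 became 53 with normexp, 0 with the detected percentile, quantile normalization and the block, and 43 with no filter, and 0 to 45 without a pair. The count for TCRβ-negative CD4SP minus DP and that for CD8 pairs against the other pairs were 0 under each alternative run. Chosen after seeing the data, slide 1 alone gave 4 for genotype, 201 for CD4SP minus DP, 15 for CD8SP minus DP, 59 for CD8SP minus CD4SP and 100 for TCRβ-negative minus CD4SP, and counting only members detected on all 9 arrays gave 0, 32, 32, 0 and 7, and 0 for OT-I CD8SP minus CD8SP. Members past 2-fold in the DP, CD4SP, CD8SP and OT-I pairs went from 796, 803, 994 and 881 to 101, 58, 127 and 167 with normexp and to 395, 284, 428 and 445 when detected on both arrays. The interquartile range ratio for CD4SP minus DP went from 0.66 to 0.76 with all probes of each class, and the ratios for genotype and CD8SP minus DP stayed between 0.81 and 0.88 and between 0.76 and 0.85. The cause of these shifts was not tested. The detected percentile moved the median of all probes for CD8SP minus DP from 0.00 to -0.15. For genotype the block equals leaving out the CD8SP pair. Signal over background limits the dim members, since 2637 of 4962 were detected on all arrays.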
